A study of Rattus norvegicus with 9 samples.

Results

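The SMN complex was followed on gene arrays of rat retinal ganglion cells, the projection neurons of the retina, that had been transfected with Set-β. The 8 genes followed were Smn1, Gemin2, Gemin4, Gemin5, Gemin6, Gemin7, Gemin8 and Ddx20, each taken as every array feature annotated with exactly that symbol. Such a feature, a transcript cluster, sums the probes of 1 gene. Each of the 8 genes had 1 cluster, among 18511 clusters with 1 symbol and 36685 in all. The genes were selected on measured values of these arrays, because Gemin2 was lower in wt-SetB than in mCherry, so the values of the 8 genes in that comparison are a description and carry no test.

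All cells came from Sprague Dawley rats at postnatal day 4, and all groups carried pMAX-GFP, a plasmid for green fluorescent protein. They were captured on antibody-coated dishes (immunopanning), transfected, sorted for fluorescence the next day and lysed 3 days after transfection. The control, mCherry, received the gene of a red fluorescent protein, wt-SetB received wild-type Set-β, and myr-SetB received myr-Set-β, a modified form whose prefix the labels do not spell out. Each group had 3 arrays, called biological replicates in the titles. Whether a replicate was a separate culture or litter is not given, so p-values measure the spread between arrays, which may be technical. The sources used here do not give the promoter or species of the constructs, and no cluster carried the symbol Set, so the transfected gene was not followed. In such pooled cells, fewer cells of a type and less RNA per cell cannot be told apart.

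The spliceosome removes introns with small nuclear ribonucleoproteins (snRNPs), particles of a short nuclear RNA and a ring of Sm proteins. The SMN complex builds that ring in the cytoplasm: SMN and Gemin2 form its core, Gemin5 recognises the RNA, and the other Gemins and the helicase Ddx20 are further subunits. Loss of SMN causes spinal muscular atrophy, a disease of motor neurons.

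Promoter sequences were available in RefSeq (rat assembly GRCr8) for 7 of the 8 genes, Gemin5 being the exception. The 250 bases before the annotated start are shown 5′ to 3′ on the gene's own strand for the genes on which the results turn, Gemin2 and Ddx20, which had the lowest differences from mCherry, and Smn1, the namesake, which did not. The windows are chr6:82442169-82442418 on the plus strand for Gemin2, chr2:195855097-195855346 on the minus strand for Ddx20 and chr2:33223865-33224114 on the plus strand for Smn1. Capitals mark motifs found on either strand.
Gemin2: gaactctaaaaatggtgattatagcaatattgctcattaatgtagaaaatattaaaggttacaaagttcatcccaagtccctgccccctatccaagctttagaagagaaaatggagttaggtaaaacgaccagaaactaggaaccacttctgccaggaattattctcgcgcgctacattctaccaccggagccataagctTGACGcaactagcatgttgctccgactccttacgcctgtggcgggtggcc
Ddx20: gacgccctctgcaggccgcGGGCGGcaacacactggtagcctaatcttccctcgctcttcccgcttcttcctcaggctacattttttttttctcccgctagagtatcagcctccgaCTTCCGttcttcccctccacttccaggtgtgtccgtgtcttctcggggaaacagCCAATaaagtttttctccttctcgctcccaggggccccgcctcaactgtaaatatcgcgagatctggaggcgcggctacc
Smn1: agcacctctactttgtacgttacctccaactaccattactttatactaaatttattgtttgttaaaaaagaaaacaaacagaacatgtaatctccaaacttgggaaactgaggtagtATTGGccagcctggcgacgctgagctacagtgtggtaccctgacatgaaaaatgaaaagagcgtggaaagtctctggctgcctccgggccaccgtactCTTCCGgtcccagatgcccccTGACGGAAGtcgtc
The motifs searched were TGACG, the core of the cyclic AMP response element, its full form TGACGTCA, CGGAAG of ETS factors, GGGCGG of SP and Krüppel-like factors, CCAAT, and the NRF1 motif (GCGC and TGCGC parted by 1 base of any kind). A full response element also counts as a core on each strand, and in Smn1 the core overlaps an ETS motif. Gemin2 held a single TGACG, 50 bases before the start. Ddx20 held 1 ETS motif, 1 SP motif and 1 CCAAT, and Smn1 held 1 response element core, 1 CCAAT and 2 ETS motifs. The full TGACGTCA was found in Gemin6, 18 bases before the start, and in 1.59% of the 33469 RefSeq promoters searched. TGACG was found in 5 of 7 members against 18.2% of all promoters, CGGAAG in 4 against 13.9%, GGGCGG in 4 against 30.5%, CCAAT in 3 against 34.0%, and the NRF1 motif in 0 against 3.75%. These are matches of letters, not binding sites. Smn1 shared TGACG with Gemin2, and the ETS motif and the CCAAT box with Ddx20. None of the 6 motifs was in all 3 promoters printed above.

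Values are log2 of the deposited intensity, which has a median of 100 on each array. A difference is that of the group means on this scale, and its standard error (SE) comes from a limma fit to all 9 arrays. Clusters with a mean log2 value below 6.65, the median over clusters, were not tested, which left 18343 clusters and 6 of the 8 members. Gemin2 lay just inside this level with a mean of 6.67, Gemin8 just outside with 6.65, and Gemin4 below it with 6.33. Brightness depends on the probes, so levels are compared between arrays and not between genes.

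The cells carried the markers of their label. All 16 ganglion cell markers searched were above the level filter, and the log2 mean of Rbpms, an RNA-binding protein of these cells, was 10.10 in mCherry, 9.29 in wt-SetB and 9.09 in myr-SetB. The summed intensity of the 16 ran from 12088 to 20926 in mCherry, 7871 to 13561 in wt-SetB and 8134 to 14745 in myr-SetB. Markers of other retinal cells were above the filter for 5 of 10 amacrine and horizontal, 2 of 10 photoreceptor and bipolar, 2 of 6 Müller glia and astrocyte, 7 of 10 microglia and macrophage and 5 of 7 vascular and fibroblast genes that had a cluster. None of these reads as 0 on an array. The Müller glia and astrocyte sum differed widely between arrays of a group, from 726 to 4859 in mCherry, 583 to 3889 in wt-SetB and 823 to 4588 in myr-SetB. Vim was by far the brightest gene of this list, with log2 means of 10.77, 10.26 and 10.61 in that order of groups. Aqp4 came next, with 6.63, 6.94 and 6.97. The median log2 value of the list ran only from 6.06 to 6.27 in mCherry, 6.03 to 6.27 in wt-SetB and 6.12 to 6.49 in myr-SetB. The vascular and fibroblast sum ran from 606 to 1523, 692 to 1113 and 774 to 1324 in that order of groups, and the microglial sum from 1201 to 1605, 1362 to 1724 and 1437 to 1774. The amacrine and horizontal sum ran from 1087 to 1353, 966 to 1102 and 1056 to 1191, and the photoreceptor and bipolar sum from 775 to 931, 884 to 911 and 786 to 857. The distance between the 10th and 90th percentiles of an array, in log2 units, was 4.29 to 4.54 in mCherry, 4.12 to 4.21 in wt-SetB and 3.82 to 4.46 in myr-SetB. The part of these differences in the results on the SMN complex was not tested.

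Gemin2, the partner that holds the Sm proteins on SMN, had its highest signals in the control cells. Its log2 intensity was 7.10, 6.90 and 7.52 on the mCherry arrays. On the wt-SetB arrays it was 6.38, 5.92 and 6.49. Every wt-SetB array lay below every mCherry array, and replicate 2 of wt-SetB was the lowest of all 9. On the myr-SetB arrays it was 6.45, 6.56 and 6.71, so that these also lay below all control arrays and overlapped with wt-SetB. The group means ran from 7.17 ± 0.32 (SD, n = 3) in mCherry through 6.57 ± 0.13 in myr-SetB to 6.26 ± 0.30 in wt-SetB.

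The difference of Gemin2 in wt-SetB from mCherry, on which the genes were chosen, was -0.91 ± 0.22 (SE). That of myr-SetB from mCherry was -0.60 ± 0.22, and that of myr-SetB from wt-SetB 0.31 ± 0.22, with overlapping arrays. All 3 are descriptions and carry no test here. The latter comparisons reuse the mCherry or wt-SetB arrays on which the gene was chosen. Gemin2 also passed the level filter only through its control arrays, its means in wt-SetB and myr-SetB lying below 6.65.

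The Gemin2 signal was closer to background in the Set-β groups than in the control. Odorant receptors, which serve here as a mark of background, had 1128 clusters. On the mCherry arrays 84.0% to 94.4% of these were dimmer than Gemin2, on the wt-SetB arrays 60.0% to 72.8%, and on the myr-SetB arrays 63.2% to 85.5%. The median of the odorant receptors was 5.34 to 5.61 in mCherry, 5.60 to 5.78 in wt-SetB and 5.44 to 5.93 in myr-SetB, so Gemin2 stayed above it on every array. The 90th percentile of the odorant receptors lay between 6.98 and 7.64 on the wt-SetB and myr-SetB arrays, above Gemin2 on all 6. On the mCherry arrays it was 6.89, 7.32 and 7.14, and Gemin2 exceeded it in replicates 1 and 3. No fold is therefore given for Gemin2. How much such background compresses the differences was not tested.

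**Figure D1:**
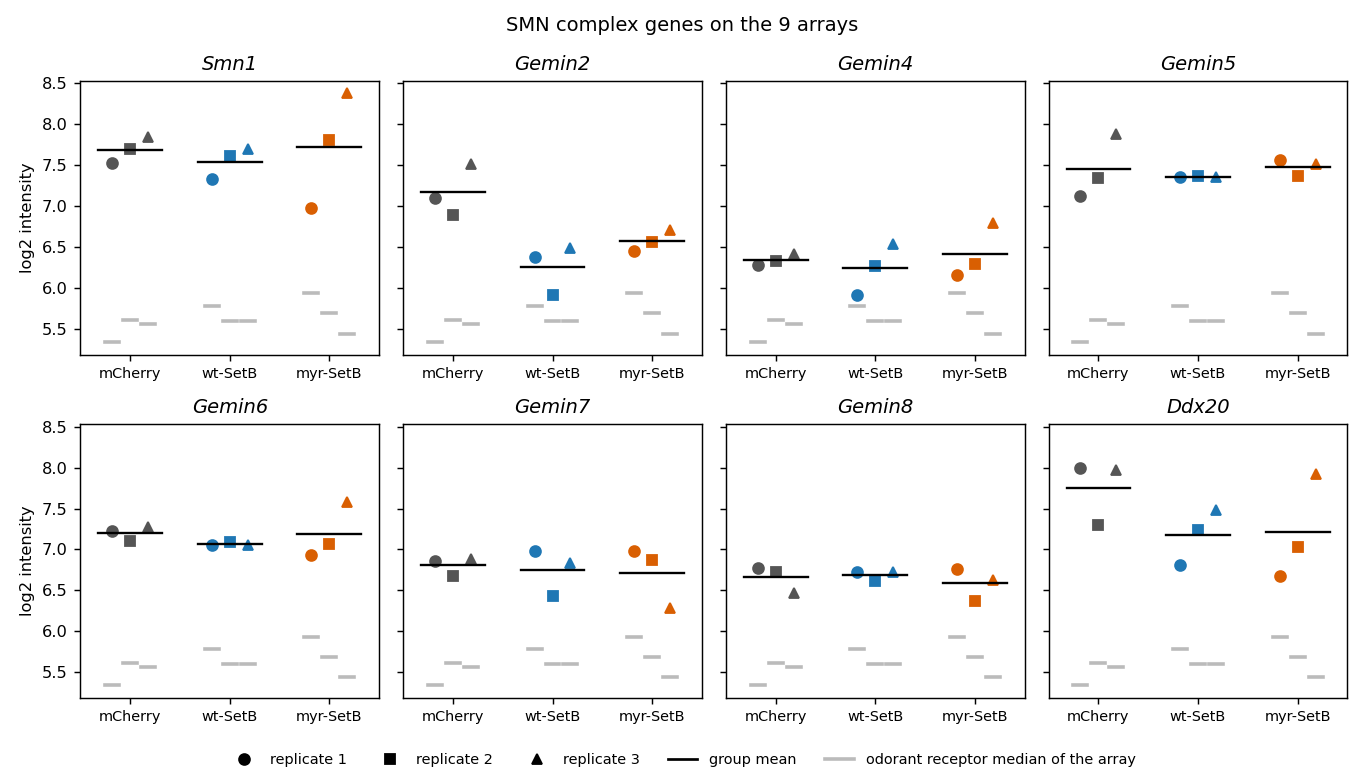
Log2 intensity (vertical axis) of the 8 SMN complex genes on each of the 9 arrays, by group (horizontal axis). Symbols are replicates, black bars group means and grey bars the median of 1128 odorant receptor clusters on the same array. The Gemin2 arrays of wt-SetB and myr-SetB all lie below the mCherry arrays, whereas the groups of Smn1, Gemin4, Gemin7, Gemin8 and Ddx20 overlap.

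Smn1, the scaffold of the complex, did not share the order seen for Gemin2. It had 7.53, 7.70 and 7.85 on the mCherry arrays and 7.33, 7.61 and 7.69 on the wt-SetB arrays. On the myr-SetB arrays it had 6.98, 7.81 and 8.38, which hold both the lowest and the highest of the 9 values. All groups overlapped. The difference in wt-SetB from mCherry was -0.15 ± 0.32 (SE). In myr-SetB it was 0.030 ± 0.32, with an interval from -0.69 to 0.75 and a limma adjusted p of 0.964. An interval this wide does not show that Smn1 was equal in the groups. Without myr-SetB replicate 1 the difference was 0.40, and without replicate 3 it was -0.30.

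Ddx20, the DEAD-box helicase also called Gemin3, had the lowest difference after Gemin2. It had 7.99, 7.30 and 7.97 on the mCherry arrays. On the wt-SetB arrays it had 6.81, 7.24 and 7.48, and on the myr-SetB arrays 6.68, 7.03 and 7.92. Replicate 2 of mCherry lay below replicate 3 of either Set-β group, so the groups overlapped. The difference from mCherry was -0.58 ± 0.35 (SE) in wt-SetB and -0.55 ± 0.35 in myr-SetB, the latter with an interval from -1.34 to 0.24 and a limma adjusted p of 0.453. It was -0.90 without myr-SetB replicate 3 and -0.29 without replicate 1. Between the Set-β forms it was 0.030 ± 0.35.

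Gemin4, which binds Ddx20, was below the level filter and was not tested. Its values were 6.28, 6.33 and 6.42 in mCherry, 5.92, 6.27 and 6.54 in wt-SetB and 6.16, 6.29 and 6.80 in myr-SetB. The wt-SetB and myr-SetB arrays spread to both sides of the control arrays. The mean differed from mCherry by -0.10 in wt-SetB and by 0.073 in myr-SetB. Over the 9 arrays Gemin4 and Ddx20 had a Pearson r of 0.69, and of 0.53 without the 2 arrays where Gemin4 was most extreme.

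Gemin5, the subunit that recognises the small nuclear RNA and its cap, had 7.13, 7.35 and 7.88 on the mCherry arrays. It was almost constant in wt-SetB, with 7.36, 7.37 and 7.36, and had 7.57, 7.37 and 7.51 in myr-SetB. The control arrays spanned those of both Set-β groups. The differences from mCherry were -0.090 ± 0.20 (SE) in wt-SetB and 0.030 ± 0.20 in myr-SetB, the latter with an interval from -0.43 to 0.49. All myr-SetB arrays lay above all wt-SetB arrays, by a margin far below the difference of 0.12 ± 0.20 between their means, and that difference had a limma adjusted p of 0.9998.

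Gemin6 and Gemin7 pair through folds like those of Sm proteins, and Gemin8 joins them to SMN. Gemin6 had 7.22, 7.10 and 7.28 in mCherry, 7.06, 7.09 and 7.06 in wt-SetB and 6.93, 7.06 and 7.58 in myr-SetB. Its wt-SetB arrays lay below the control arrays, but only by -0.13 ± 0.19 (SE) in the mean, and its myr-SetB arrays lay on both sides of them. Gemin7 had 6.86, 6.67 and 6.89 in mCherry, 6.98, 6.43 and 6.84 in wt-SetB and 6.99, 6.87 and 6.29 in myr-SetB. Its differences from mCherry were -0.060 ± 0.23 in wt-SetB and -0.092 ± 0.23 in myr-SetB, with all groups overlapping.
Gemin8 had the narrowest range of the 8 genes over the 9 arrays, 0.40 log2 units. Its values were 6.78, 6.73 and 6.47 in mCherry, 6.73, 6.62 and 6.73 in wt-SetB and 6.76, 6.38 and 6.63 in myr-SetB. It was not tested, and its means differed from mCherry by 0.033 in wt-SetB and -0.068 in myr-SetB. Over the arrays, 67.8% to 88.5% of the odorant receptor clusters were dimmer than Gemin8. For Gemin4 this was 53.6% to 87.0% and for Gemin7 72.2% to 89.7%. How far background flattens the differences of these genes was not tested. For Gemin6 and Gemin7 the limma adjusted p of myr-SetB against mCherry was 0.979 and 0.836.

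**Figure D2:**
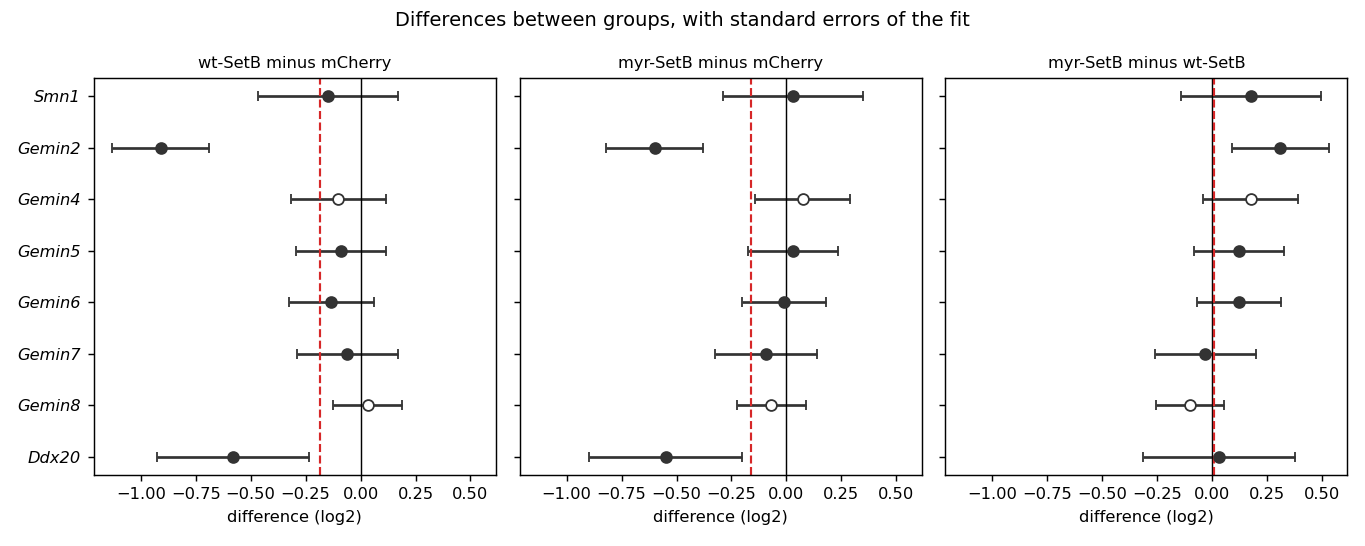
Difference between groups (horizontal axis, log2) of each SMN complex gene in the 3 comparisons, with bars of 1 standard error of the fit. Open points are the genes below the level filter, and the dashed red line is the median of all clusters tested, -0.18, -0.16 and 0.0058 from left to right. Gemin2 and Ddx20 lie to the left of that line in both comparisons with mCherry, and the other 6 genes to its right.

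Set side by side, the 8 genes did not move as a unit. In wt-SetB 7 of them had a lower mean than in mCherry, beside 65.5% of all clusters tested, and in myr-SetB 5, beside 63.9%. Between the Set-β forms 2 were lower in myr-SetB than in wt-SetB, beside 48.5%. The median difference of the 8 was -0.12 in wt-SetB, where that of all clusters tested was -0.18, and -0.040 in myr-SetB, where it was -0.16. Between the Set-β forms these values were 0.12 and 0.0058. The median of the 8 was sensitive to single arrays, running from -0.18 without mCherry replicate 1 to -0.068 without mCherry replicate 3 in wt-SetB. In myr-SetB it ran from -0.16 without myr-SetB replicate 3 to 0.013 without replicate 2, and that of all clusters tested from -0.25 without replicate 3 to -0.080 without replicate 1. In wt-SetB and in myr-SetB alike, 6 of the 8 lay above the median of all clusters tested, and Gemin2 and Ddx20 lay below it. The clusters tested are the brighter ones. Over all 36685 clusters the median was -0.061 in wt-SetB and -0.034 in myr-SetB, and the medians of the 8, -0.12 and -0.040, lay below these. Between the Set-β forms it was 0.016, and the 0.12 of the 8 lay above it. Groups that did not overlap, with the Set-β group lower, were seen for 2 of the 8 in wt-SetB (Gemin2 and Gemin6), where 17.7% of all clusters behaved so, and for 1 of the 8 in myr-SetB (Gemin2), where 5.77% did. With the Set-β group higher it was 0 of 8 in both, beside 7.12% of all clusters in wt-SetB and 5.45% in myr-SetB. Between the Set-β forms it was 1 of 8 with myr-SetB higher (Gemin5), beside 3.94% of all clusters, and 0 of 8 with myr-SetB lower, beside 2.33%.

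At a limma adjusted p of 0.05, 0% of all clusters passed in all 3 comparisons, the SMN complex genes that were tested included. Unadjusted, p was under 0.05 for 1865 clusters in wt-SetB (10.2%), for 1796 in myr-SetB (9.79%) and for 208 between the Set-β forms (1.13%). The comparisons of the Set-β groups with mCherry share the control arrays.

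Gemin2 lay below the median of all clusters tested under each scaling tried. As deposited, 3.34% of the clusters tested had a lower difference than Gemin2 in wt-SetB and 16.7% in myr-SetB. The scalings reuse the arrays on which Gemin2 was chosen, so they describe its place and lend it no support. The median of all clusters tested itself moved when the arrays were given the same distribution by quantile normalization. It went from -0.18 to -0.028 in wt-SetB and from -0.16 to -0.031 in myr-SetB. Relative to the median of all clusters tested, Gemin2 in wt-SetB lay at -0.73 as deposited, -0.83 after quantile normalization and -0.89 after cyclic loess, which removes trends with brightness between arrays. In myr-SetB these values were -0.44, -0.53 and -0.62. After either scaling the wt-SetB and myr-SetB arrays of Gemin2 still lay below all control arrays, the highest being 6.70 against a lowest control of 6.90 with quantile normalization. For Ddx20 the distance in wt-SetB was -0.40, -0.38 and -0.42. The count of members below the median of all clusters tested was not stable. It was 2 of 8 as deposited and 5 of 8 after both other scalings in wt-SetB, and 2 of 8 and 4 of 8 in myr-SetB. The place of the median of the 8 was not stable either. In wt-SetB it was -0.045 with quantile normalization, beside -0.028 for all clusters tested, and -0.054 with cyclic loess, beside -0.027. In myr-SetB it was -0.0077 beside -0.031, and -0.047 beside -0.013. Of these, only that of myr-SetB with quantile normalization lay above the median of all clusters tested. Members with a lower mean than in mCherry numbered 5 of 8 in wt-SetB after both other scalings, beside 53.5% and 53.1% of all clusters tested. In myr-SetB they numbered 4 of 8, beside 53.0% and 51.4%.

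**Figure D3:**
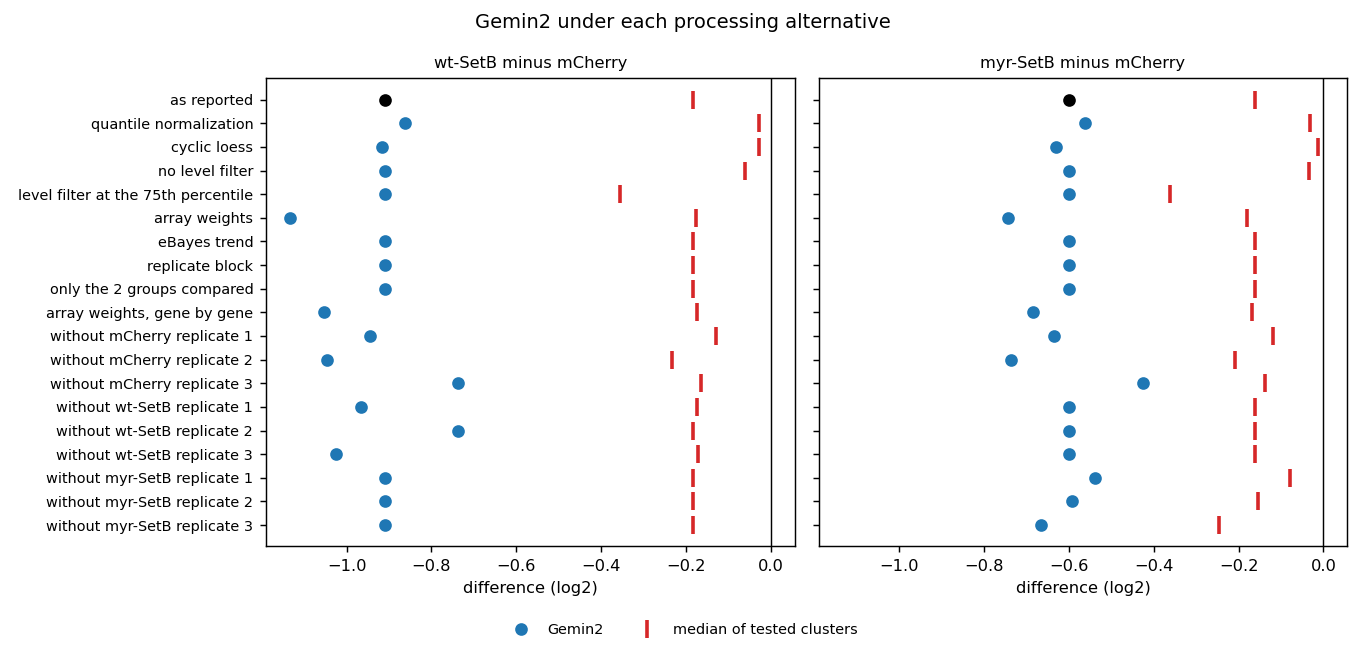
Difference of Gemin2 from mCherry (horizontal axis, log2) as reported (black) and under 18 processing alternatives (blue), in wt-SetB (left) and myr-SetB (right). Red ticks are the median of all clusters tested under the same setting. Gemin2 lies between -1.13 and -0.74 in wt-SetB and between -0.74 and -0.43 in myr-SetB, below the red tick in each case. All settings reuse the arrays on which Gemin2 was chosen. Settings that alter only the level filter, the variance, the block or the group not compared cannot change its difference.

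Over the 9 arrays the members varied in different ways. The 28 pairs of members had Pearson correlations of log2 intensity from -0.69 to 0.85 with a median of 0.18, and 18 were positive. Smn1 went highest with Gemin6 (r = 0.85) and Gemin4 (r = 0.83). The first fell to 0.29 without the 2 arrays where Smn1 was most extreme, the second to 0.79. Smn1 and Gemin7 had r = -0.69, which became -0.13 without those arrays. Gemin2 went highest with Ddx20 (r = 0.66, and 0.74 without the 2 arrays where Gemin2 was most extreme). These arrays include those on which Gemin2 was chosen. With each group centred on its mean, Gemin2 had r = 0.47 with Ddx20 and 0.53 with Gemin5. Uncentred, r with Gemin5 was 0.38, and -0.64 without the 2 arrays where Gemin2 was most extreme. These values describe 9 arrays of 3 groups that share their processing and are not tested.

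Of 10714 single-symbol clusters above the level filter, those with a pattern over the 9 arrays most like that of Gemin2 were Stat5b, a cytokine-activated transcription factor (r = 0.98), Golga2, a Golgi matrix protein (0.95), Zfp609 (0.95), Pex3, a factor of peroxisome formation (0.95), and Rce1, a protease that trims prenylated proteins (0.94). Stat5b had group means of 7.19 in mCherry, 6.80 in wt-SetB and 6.87 in myr-SetB, in the order of Gemin2, over a smaller range. The 5 genes were picked by likeness to Gemin2, which was chosen as lower in wt-SetB than in mCherry. A matching order of groups is therefore no separate result. There were 22 clusters with r above 0.9. For Smn1 there were 78, led by Bmp2k, a kinase (0.97), Slc7a2, an amino acid carrier (0.96), Cep20 (0.96), Dnajb4, a chaperone (0.95), and Lrrc8c, a subunit of volume-regulated channels (0.95). Without the 2 arrays where the named member was most extreme, r was 0.85 to 0.94 for the 5 genes most like Gemin2. For those most like Smn1 it was 0.62 for Lrrc8c and 0.89 to 0.94 for the others. No gene stood in both lists of 5.

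The other genes of snRNP assembly were followed through 9 lists of 96 genes, of which 85 had a cluster with their symbol and 84 were tested. In wt-SetB 79 of the 84 had a lower mean than in mCherry, beside 65.5% of all clusters tested, and their median difference was -0.47, beside -0.18. In myr-SetB it was 77 of 84, beside 63.9%, with a median of -0.44 beside -0.16. Between the Set-β forms 45 of 84 were lower in myr-SetB, beside 48.5% of all clusters tested. In none of the 3 comparisons did any of the 84 pass a limma adjusted p of 0.05. Unadjusted limma p was under 0.05 for 19 lower and 0 higher genes in wt-SetB, where 7.13% of all clusters tested were lower and 3.04% higher by that measure. In myr-SetB it was 14 lower and 1 higher, beside 6.92% and 2.87%, and between the forms 1 in each direction, beside 0.567% each. The lists were chosen with earlier results of these data known, so these counts are descriptions and lend no separate support.

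The brightness of these genes differed from that of the SMN complex. Among the 84 genes 59 lay above the 75th percentile of mean log2 level over clusters, against 1 of the 8 SMN complex members (Smn1). The median difference of all clusters above it was -0.36 both in wt-SetB and in myr-SetB. Of those brightest clusters 73.8% were lower than in mCherry in wt-SetB and 73.9% in myr-SetB. With quantile normalization 70 of the 84 genes were lower in wt-SetB, beside 58.2% of the brightest clusters and 53.5% of all tested. Their median was -0.21, beside -0.078 for the brightest clusters and -0.028 for all tested. In myr-SetB these medians were -0.26, -0.12 and -0.031. With cyclic loess they were -0.23, -0.068 and -0.027 in wt-SetB and -0.19, -0.040 and -0.013 in myr-SetB. The medians of all 9 lists below were under 0 in both Set-β groups with all 3 scalings, the nearest to 0 being that of the Sm proteins in myr-SetB with cyclic loess, -0.035. Leaving out 1 array kept all of these medians below 0, but moved several by more than 1.5 times. In myr-SetB, replicate 1 and replicate 3 had the most weight. Without replicate 1 the U1 and U2 list stood at -0.064, the SMN partners at -0.20, the Sm proteins at -0.17, the minor spliceosome at -0.097, the methylosome list at -0.29, the U7 and Lsm list at -0.37, the export and import list at -0.34 and the transcription list at -0.22. Without replicate 3 the U1 and U2 list stood at -0.75, the SMN partners at -0.89, the minor spliceosome at -0.34 and the transcription list at -0.55. The minor spliceosome in myr-SetB also moved by that much without replicate 2 and without mCherry replicate 2. In wt-SetB the methylosome list stood at -0.43 and the Sm proteins at -0.23 without mCherry replicate 3, the Cajal body at -0.38 without mCherry replicate 2, and the minor spliceosome at -0.17 without wt-SetB replicate 3. How far brightness accounts for the position of the lists was not tested.

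Among the helpers that prepare Sm proteins, Strap, a SMN-bound protein also called Unrip, had 9.63, 8.73 and 9.34 in mCherry, 8.62, 8.42 and 8.09 in wt-SetB and 7.49, 8.50 and 8.91 in myr-SetB. The wt-SetB arrays of Strap lay below the control arrays, and the myr-SetB arrays overlapped with them. Its difference from mCherry was -0.86 ± 0.38 (SE) in wt-SetB and -0.94 ± 0.38 in myr-SetB. Although bound to SMN, Strap was counted in this list and not among the 8 members. Clns1a, the chaperone pICln, differed from mCherry by -0.98 ± 0.30 (SE) in wt-SetB and -0.59 ± 0.30 in myr-SetB. The methyltransferase Prmt5 differed by -0.47 ± 0.26 and -0.52 ± 0.26, while its cofactor Wdr77 was at 0.029 ± 0.19 and 0.094 ± 0.19. The list of 7 had a median of -0.79 in wt-SetB and -0.52 in myr-SetB. For the Sm proteins themselves the medians of 6 genes were -0.39 and -0.43, and Snrpb, the SmB protein, was at -0.49 ± 0.20 and -0.25 ± 0.20.

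Small nuclear RNA leaves the nucleus and returns to it during assembly. The 8 genes of export, cap and import had medians of -0.62 in wt-SetB and -0.68 in myr-SetB, with 8 of 8 below mCherry in both. Phax, the export adaptor, had 8.16, 7.60 and 8.42 in mCherry, 7.30, 7.23 and 7.35 in wt-SetB and 6.67, 7.35 and 7.54 in myr-SetB, so that both Set-β groups lay below the control. Its difference in myr-SetB was -0.87 ± 0.28 (SE), with a limma adjusted p of 0.447. Snupn, the import adaptor snurportin, had 7.64, 7.10 and 7.73 in mCherry, 7.34, 7.18 and 6.93 in wt-SetB and 6.32, 6.39 and 6.93 in myr-SetB. Its myr-SetB arrays lay below the control arrays, and the difference between the Set-β forms was -0.60 ± 0.24, with a limma adjusted p of 0.9998. Tgs1, the enzyme that trimethylates the cap, was at -0.45 ± 0.27 in wt-SetB and -0.26 ± 0.27 in myr-SetB.

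Lsm10 and Lsm11 replace a pair of Sm proteins in the U7 particle that trims histone messages. Lsm11 had 9.29, 10.07 and 7.94 in mCherry, 7.76, 7.38 and 7.55 in wt-SetB and 6.25, 6.95 and 8.30 in myr-SetB. The control arrays alone spanned over 2 log2 units, and the differences of -1.54 ± 0.60 (SE) and -1.93 ± 0.60 had the largest errors of any gene in that list. Lsm10 was at -0.21 ± 0.26 and -0.15 ± 0.26. The list of 9 had medians of -0.59 in wt-SetB and -0.64 in myr-SetB.

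In the Cajal body, the nuclear body where these particles mature, Coil, its scaffold coilin, had 7.07, 6.63 and 7.08 in mCherry, 6.78, 6.96 and 6.34 in wt-SetB and 6.45, 6.58 and 6.61 in myr-SetB. Wrap53, a factor that brings RNA to these bodies, went the other way. It had 6.82, 6.73 and 6.84 in mCherry, 7.12, 6.93 and 7.05 in wt-SetB and 7.21, 7.11 and 7.19 in myr-SetB, with all arrays of both Set-β groups above the control. The difference was 0.23 ± 0.14 (SE) in wt-SetB and 0.37 ± 0.14 in myr-SetB, the latter with a limma adjusted p of 0.447. Zpr1, which binds SMN, was at -0.37 ± 0.23 and -0.32 ± 0.23. The list of 7 tested genes had medians of -0.25 and -0.32.

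The other lists held the proteins of the U1 and U2 particles (medians of -0.46 in wt-SetB and -0.42 in myr-SetB, 10 genes), the minor spliceosome (-0.32 and -0.17, 7 genes), and the transcription and end processing of small nuclear RNA (-0.40 and -0.34, 19 genes). In the minor spliceosome, which removes a rare class of introns, Rnpc3 was at -0.51 ± 0.21 (SE) and -0.17 ± 0.21, and Snrnp35 at -0.32 ± 0.28 and 0.34 ± 0.28. The partners and modifiers of SMN in motor neurons had medians of -0.74 and -0.56 over 11 genes. Elavl4, at -0.78 ± 0.39 and -0.71 ± 0.39, stood both in this list and among the ganglion cell markers. In the same list Hnrnpr, an RNA-binding partner of SMN in axons, was at -0.63 ± 0.27 and -0.41 ± 0.27. Tmem41b, the gene Stasimon whose splicing depends on SMN, was at -0.47 ± 0.26 and -0.68 ± 0.26. Pls3, the actin-bundling plastin that modifies spinal muscular atrophy, had 8.16, 9.85 and 10.54 in mCherry, 7.66, 9.30 and 9.37 in wt-SetB and 7.37, 9.46 and 10.36 in myr-SetB. Replicate 1 was the lowest of each group, and the arrays of the 3 groups overlapped.

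**Figure D4:**
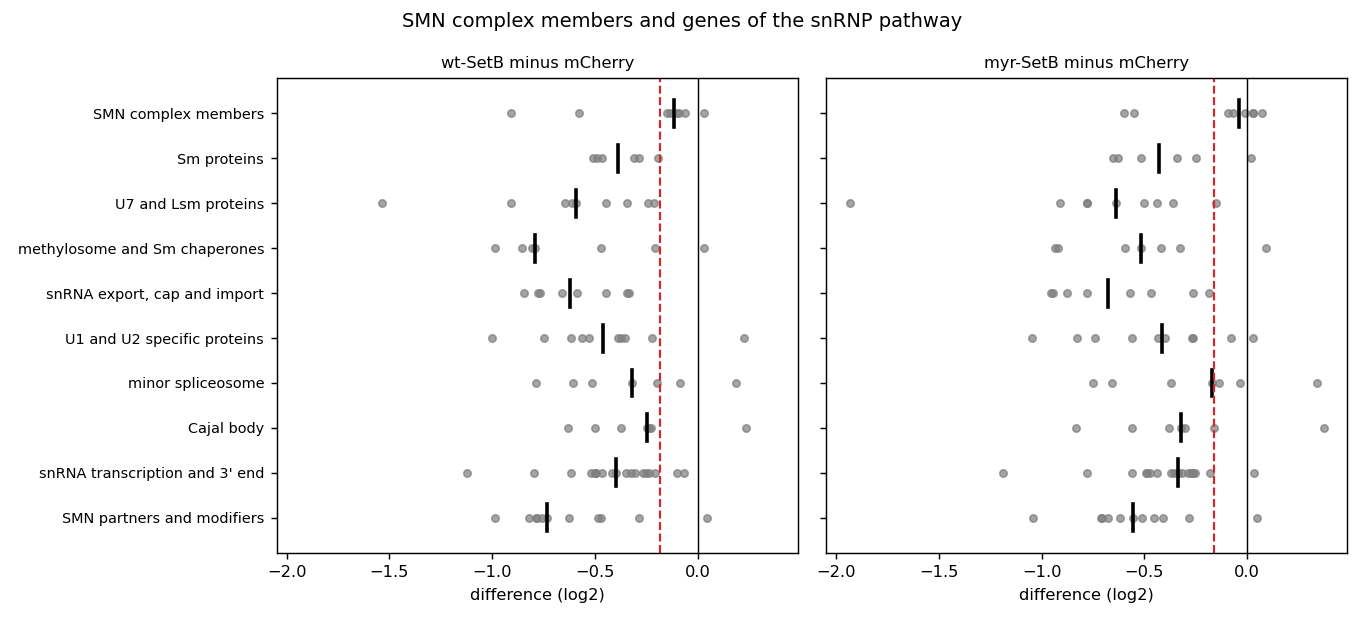
Difference from mCherry (horizontal axis, log2) of the 8 SMN complex members and of the tested genes of 9 snRNP assembly lists, in wt-SetB (left) and myr-SetB (right). Grey points are genes, black bars list medians, and the dashed red line the median of all clusters tested. The medians of the SMN complex members, -0.12 and -0.040, lie to the right of the red line, and those of the 9 lists to its left. The values are as deposited. In wt-SetB the median of the members lay below that of all clusters tested after quantile normalization and after cyclic loess, and in myr-SetB after cyclic loess. Over all clusters, those not tested included, the median was -0.061 in wt-SetB and -0.034 in myr-SetB.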

How the data were processed

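Whole-transcriptome amplified cDNA was hybridised to Affymetrix Rat Gene 2.0 ST arrays, per the labels. The authors deposited intensity values on a linear scale, made with Affymetrix Expression Console and RMA per the submitters' processing notes, and divided by each array's median per the design text, with a median of 100 in each array of the files. The sources used here name no versions and no genome build. A platform annotation named the clusters (18511 with 1 symbol, 575 with several, 17599 with none), and symbols were updated through RefSeq (GRCr8). The number of arrays limits the precision.

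Intensities were log2-transformed and fitted in R 4.3.3 with limma 3.58.1 (lmFit, eBayes, two-sided, 6 residual and 2.82 prior degrees of freedom, Benjamini-Hochberg adjustment over 18343 clusters). The fit was tested on simulated data. Group values are mean ± SD, and intervals are 95%. Members and lists were chosen with earlier results of these data known. A pathway gene stood by its brightest cluster, and those named were picked by role. The 5 most similar genes were taken by Pearson correlation. Alternatives were quantile normalization, cyclic loess, other level filters, array weights, a variance trend, the replicate number as a block, only the groups compared, and leaving out each array.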

Additional observations from a re-analysis of the deposited data

How the results depend on the processing

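Gemin2 stayed lower than in mCherry in both Set-β groups under each of the 18 alternatives, and so did Ddx20. Several alternatives cannot change a difference of group means and add nothing here. These are the other level filters, the variance trend, the replicate block and the fits of only the groups compared. Leaving out an array of the group not compared cannot change it either. For Gemin2 the alternatives reuse the arrays on which it was chosen, so its stability is a description only. With array weights Ddx20 was at -0.79 with a limma adjusted p of 0.0157 in myr-SetB against mCherry, the lowest of a range up to 0.946 over the alternatives. That estimate stopped before it converged and gave replicate 2 of myr-SetB a weight of 165, with at most 1.68 for any other array, so that it called 5903 clusters (32.2%) in this comparison and 1270 between the Set-β forms. With weights estimated gene by gene, an alternative added after seeing the data, 0 clusters passed and the adjusted p of Ddx20 was 0.222. Gemin2 is left out of these tests, since its control arrays chose it.

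The signs of the other members' small differences were not stable. In myr-SetB against mCherry Gemin6 became 0.038 with quantile normalization and 0.046 with cyclic loess, and with array weights Gemin5 became -0.27 (-0.18 gene by gene) and Gemin7 0.037. Between the Set-β forms Ddx20 became -0.045 with quantile normalization and -0.18 with array weights (-0.12 gene by gene), Gemin6 -0.0083 and Gemin7 0.21 (0.13 gene by gene). Leaving out 1 array gave -0.30 to 0.40 for Smn1, -0.13 to 0.24 for Gemin5, -0.21 to 0.12 for Gemin6 and -0.23 to 0.12 for Gemin7 in myr-SetB against mCherry. Between the forms it gave -0.15 to 0.55 for Smn1, -0.073 to 0.25 for Gemin6, -0.19 to 0.18 for Gemin7 and -0.32 to 0.29 for Ddx20.

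Clusters at an unadjusted p under 0.05 numbered, in wt-SetB, myr-SetB and between the forms in that order, 3043, 2986 and 749 with no level filter and 885, 842 and 70 with the filter at the 75th percentile, which change the number tested. They were 6279, 8627 and 4514 with array weights and 4688, 3801 and 1055 gene by gene. In fits of only 2 groups they were 4262 in wt-SetB and 891 in myr-SetB. Leaving out 1 array gave 880 to 3862, 642 to 6141 and 182 to 833. The median of all clusters tested was -0.027 in wt-SetB with cyclic loess, and -0.36 in both Set-β groups with the filter at the 75th percentile. The causes of these changes beyond the number tested were not tested.

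The labels do not say that replicate numbers pair the arrays, and the data settle it neither way. Deviations of same-numbered arrays had correlations from -0.069 to 0.38, over 0.1 in 5 of 9 pairs, among them all pairs of replicate 3 and none of replicate 2. Arrays that differed in both group and number had correlations from -0.40 to 0.36. Of the 9 arrays, 5 went best with their own number. With the replicate number as a block the differences were the same, the adjusted p of Ddx20 in myr-SetB against mCherry was 0.436, the counts at an unadjusted p under 0.05 were 1937, 1754 and 251, and no call changed.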
